A study of Mus musculus and Homo sapiens with 9 samples.

Results

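Cell cycle and replication genes are a list of 40 genes that act in DNA replication or in mitosis, taken from 21883 protein-coding mouse genes on placed chromosomes. The 17 replication members act at the G1/S transition and in S phase, and the 23 mitotic members act from G2 to cell division. Chromatin immunoprecipitation and sequencing (ChIP-seq) was used to map 2 proteins in B16 cells, a mouse melanoma line. One was TDG (thymine DNA glycosylase), which cuts mispaired thymine and oxidised forms of methylcytosine out of DNA in base excision repair, and the other was the transcription factor p53. Both libraries came from B16 cells whose Tdg gene carries an HA tag by knock-in, and the labels list no treatment for them. The HA antibody gave 3410 TDG peaks and the p53 antibody gave 126 peaks, each list from 1 library with no replicate. The labels do not say whether the tagged line is 1 clone. No sorting by cell cycle phase is described, so each peak is an average over the culture. Whether the HA peaks depend on the tag, or the p53 peaks on p53, was not tested, because neither untagged cells with the HA antibody nor Trp53 knockout cells with the p53 antibody were analysed here.

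Cells enter S phase when cyclin E and its kinase release E2F transcription factors from the retinoblastoma protein family. E2F factors then drive the genes for origin licensing, the MCM helicase and nucleotide supply. Mitotic genes peak later, through the MuvB complex with B-MYB and FOXM1, and many of their promoters carry a short element called CHR near the start together with boxes for the factor NF-Y. p53 is known to lower many genes of both kinds indirectly, through the inhibitor p21 and the DREAM repressor complex, which acts on E2F and CHR elements.

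A TDG peak was counted for a gene when its summit, the base with the most reads, lay within 1 kb of either end of the gene. By this rule 14 of the 40 genes (35.0%, exact binomial 95% interval 20.6 to 51.7%) had a TDG peak, against 12.9% of 17936 other protein-coding genes on the same 16 chromosomes and 12.3% of all protein-coding genes. The genes were E2f1, Foxm1, Cdc6, Cdt1, Mcm2, Mcm4, Mcm7, Rrm2, Ccna2, Plk1, Aurka, Mad2l1, Birc5 and Prc1. Each had 1 peak at its ends, and the other 26 genes had none there. Intervals here cover counting error only, and since the genes were chosen with earlier results of these data known, no test of the list was made. Because peak density differs between chromosomes, the background was also weighted by the number of list genes on each chromosome, which gave 12.7%, or 5.06 of 40 genes.

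**Figure D1:**
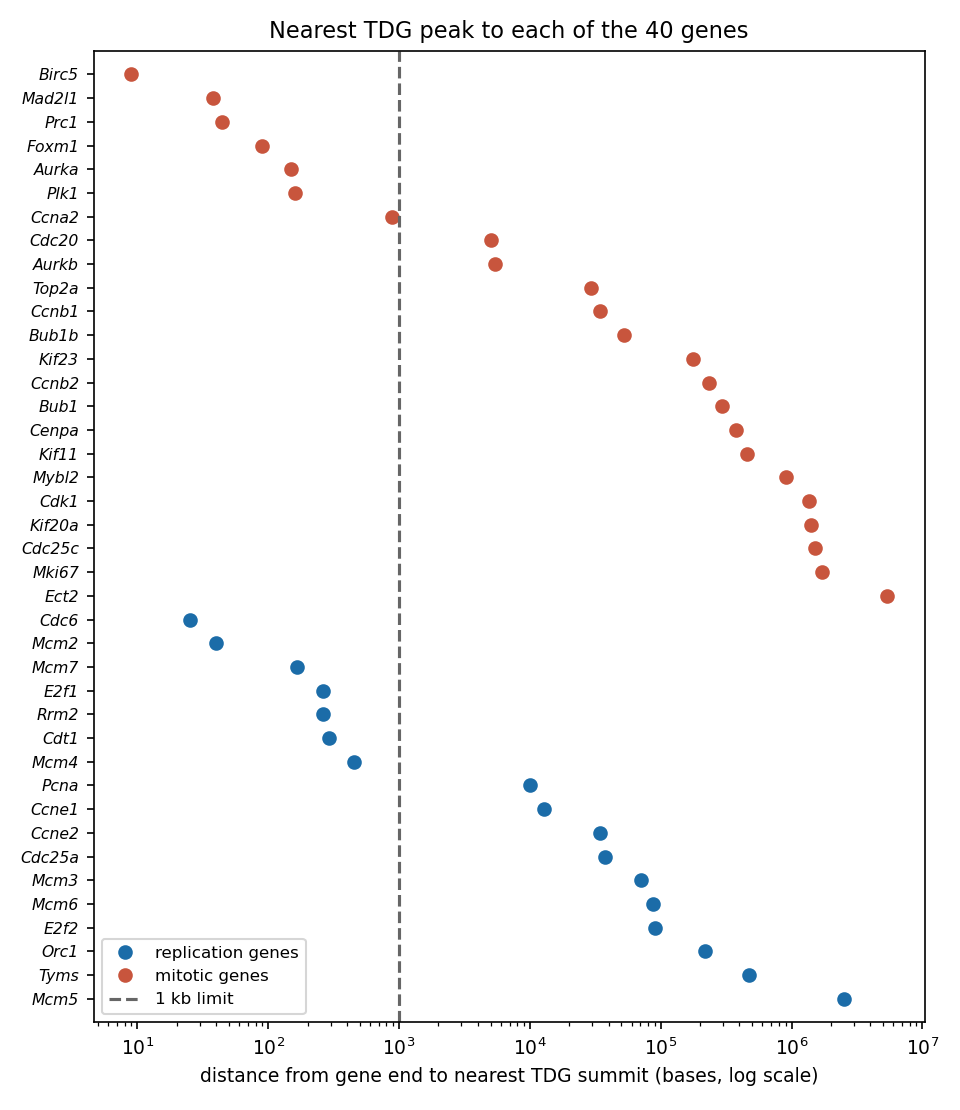
Distance in bases (log axis) from the nearer end of each of the 40 genes to the nearest TDG summit, 1 point per gene, with the 1 kb limit dashed. The 14 genes with a peak lie at 9 to 879 bases, and the next is Cdc20 at 5010 bases.

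The limit of 1 kb fell in a wide gap. Of the genes inside it, the farthest were Mcm4, with its summit 455 bases from the upper end, and Ccna2, with its summit 879 bases from the upper end. The nearest genes outside it were Cdc20 at 5010 bases, Aurkb at 5402 bases and Pcna at 9935 bases. A limit of 3 kb therefore gave the same 14 genes and a limit of 500 bases gave 13. None of the 40 genes had a TDG summit deeper in its body than 1 kb from an end.

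The TDG peaks lay at gene starts. RefSeq start positions on GRCm38.p6, the assembly of mm10, were matched for 33 of the 40 genes, and those without an entry were Aurkb, Ccna2, Ccne2, Cdc25c, Foxm1, Kif20a and Mcm4. All 11 matched genes with a TDG peak had it at the end that holds the start and none at the end where transcription stops. Among other protein-coding genes with a TDG peak and a known strand, 96.2% of 2250 had one at the start, so this position is shared with TDG peaks in general. The 11 summits lay between 726 bases before the annotated start (E2f1) and 263 bases after it (Rrm2), with a median offset of -38.0 bases, where a negative offset is upstream. For 2100 pairs of other genes and TDG peaks, the median offset was -75 bases, with quartiles of -180 and 58.0 bases.

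**Figure D2:**
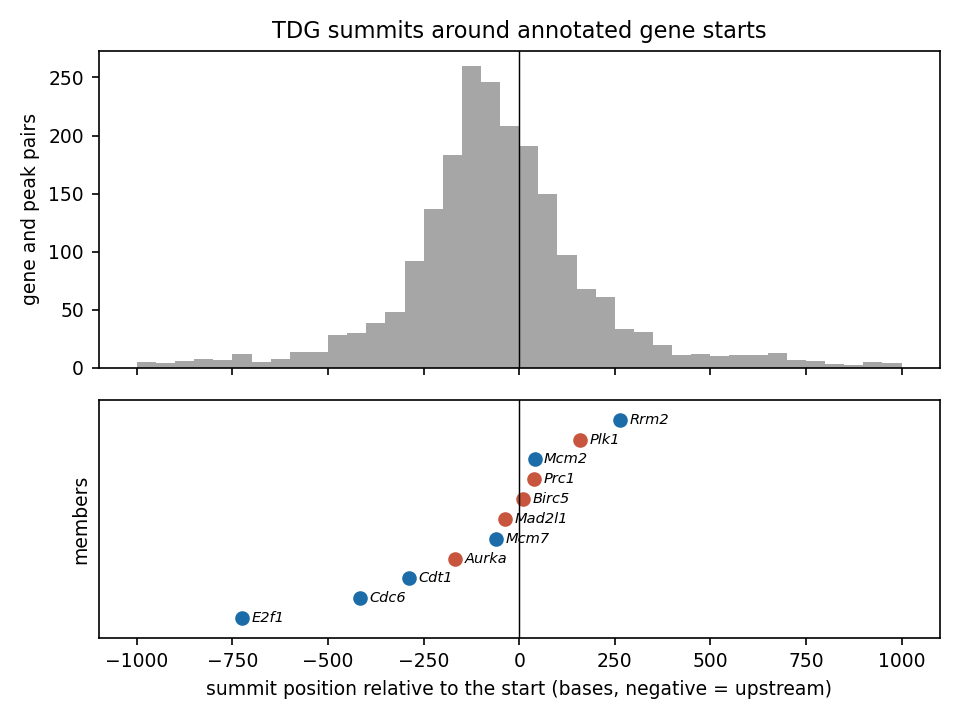
Position of the TDG summit relative to the annotated gene start, in bases, with negative values upstream. The upper panel counts pairs of other protein-coding genes and TDG peaks in bins of 50 bases. The lower panel shows the 11 members with a known start, from E2f1 at -726 to Rrm2 at 263, in blue for replication and red for mitotic genes.

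The sequence around these starts is shown for 4 genes whose TDG peak covers most of the window and for 2 without a TDG peak within 1 kb, as RefSeq GRCm38.p6 gives it from 250 bases before the start to 50 bases from the start on. They show which promoter elements lie under the TDG peaks, and that genes without a peak carry them too. The windows are chr11:117848987-117849286 (+ strand) for Birc5, chr7:80294201-80294500 (+ strand) for Prc1, chr7:122159185-122159484 (+ strand) for Plk1, chr5:138171834-138172133 (- strand) for Mcm7, chr10:69352863-69353162 (- strand) for Cdk1 and chr1:128359656-128359955 (- strand) for Mcm6. Prc1 and Mcm7 have 2 annotated starts, and the outer one is used. Each runs 5′ to 3′ along the gene, and capitals mark matches on either strand to E2F (TTCCCGC or TTGGCGC), CHR (TTTGAA), the NF-Y box (CCAAT) and the CRE core (TGACGT). Adjacent or overlapping matches run together.
Birc5: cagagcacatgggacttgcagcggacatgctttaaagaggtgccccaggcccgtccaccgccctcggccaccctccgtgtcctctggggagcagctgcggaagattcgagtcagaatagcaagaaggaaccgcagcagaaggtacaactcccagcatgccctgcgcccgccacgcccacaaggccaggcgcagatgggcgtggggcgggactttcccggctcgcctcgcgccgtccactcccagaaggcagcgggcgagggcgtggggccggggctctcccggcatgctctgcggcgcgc
Prc1: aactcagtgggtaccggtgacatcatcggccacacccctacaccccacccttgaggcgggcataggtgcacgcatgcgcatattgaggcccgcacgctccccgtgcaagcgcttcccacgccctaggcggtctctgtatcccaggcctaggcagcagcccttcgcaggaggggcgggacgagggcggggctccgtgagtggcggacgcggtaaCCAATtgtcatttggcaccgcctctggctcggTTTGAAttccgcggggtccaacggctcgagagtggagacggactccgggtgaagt
Plk1: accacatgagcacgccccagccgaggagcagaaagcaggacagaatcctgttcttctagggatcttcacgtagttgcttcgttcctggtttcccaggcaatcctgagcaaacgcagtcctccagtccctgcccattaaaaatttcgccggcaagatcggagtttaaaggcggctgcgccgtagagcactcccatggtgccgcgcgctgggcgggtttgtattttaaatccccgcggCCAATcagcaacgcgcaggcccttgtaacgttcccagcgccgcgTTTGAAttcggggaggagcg
Mcm7: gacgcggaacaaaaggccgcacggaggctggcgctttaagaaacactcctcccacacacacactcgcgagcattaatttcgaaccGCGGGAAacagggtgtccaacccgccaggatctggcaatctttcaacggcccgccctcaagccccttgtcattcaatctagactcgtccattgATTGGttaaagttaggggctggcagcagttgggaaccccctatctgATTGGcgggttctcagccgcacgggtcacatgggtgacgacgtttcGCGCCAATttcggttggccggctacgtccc
Cdk1: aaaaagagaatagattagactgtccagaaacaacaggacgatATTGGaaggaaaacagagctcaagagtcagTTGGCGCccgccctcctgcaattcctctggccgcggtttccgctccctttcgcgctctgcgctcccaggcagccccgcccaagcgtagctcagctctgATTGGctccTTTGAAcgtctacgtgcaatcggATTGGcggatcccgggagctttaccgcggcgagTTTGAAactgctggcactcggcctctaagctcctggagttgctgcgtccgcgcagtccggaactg
Mcm6: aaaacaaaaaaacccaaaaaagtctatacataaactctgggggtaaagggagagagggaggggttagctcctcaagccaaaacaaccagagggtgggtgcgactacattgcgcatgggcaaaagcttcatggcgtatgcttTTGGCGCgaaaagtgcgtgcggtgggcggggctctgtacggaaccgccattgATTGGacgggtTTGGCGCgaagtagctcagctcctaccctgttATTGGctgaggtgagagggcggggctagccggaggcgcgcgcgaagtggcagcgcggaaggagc

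The peaks covered all 300 bases of the Birc5 and Prc1 windows, 219 bases of the Mcm7 window and 170 bases of the Plk1 window. The TDG summit lay 9 bases after the start of Birc5, 38 after that of Prc1 and 160 after that of Plk1, and 61 bases before that of Mcm7. Birc5 has none of the marked elements in this window, whereas Prc1 and Plk1 each have a CHR and an NF-Y box. Mcm7, a replication gene, has both E2F forms and NF-Y boxes. Cdk1 holds an E2F match, 2 CHR matches and 3 NF-Y boxes, and Mcm6 holds 2 E2F matches and 2 NF-Y boxes. Their nearest TDG summits were 1355690 and 87302 bases away.

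Among the transcription factors, E2f1 and Foxm1 had a TDG peak and E2f2 and Mybl2 did not. E2F1 activates S phase genes, and its gene held the highest enrichment of the list. The peak (chr2:154569903-154570362) reached a fold enrichment of 7.55, which is the authors' value at the summit over the caller's local background (−log10 q 12.5, 28 reads). The position of its summit was 260 bases beyond the upper end of E2f1, and the start used in the promoter table lies further inside the gene, at 726 bases from it. FOXM1 activates genes of G2 and mitosis, and the Foxm1 peak (chr6:128362676-128363011) reached 6.25-fold with 23 reads. That summit was 89 bases from Foxm1 and 6 bases from the end of its neighbour Rhno1. The nearest TDG summit to Mybl2, which encodes B-MYB, was 910313 bases away, and that to E2f2 was 90103 bases away.

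Origin licensing loads the MCM helicase onto DNA through ORC, CDC6 and CDT1. Cdc6 and Cdt1 had a TDG peak and Orc1 did not, its nearest TDG summit lying 217598 bases away. The Cdc6 peak (chr11:98907648-98908065) reached 6.25-fold with 23 reads, and its summit was 25 bases inside the lower gene end and 417 bases before the start in the promoter table. The Cdt1 peak (chr8:122567491-122567889) reached 5.10-fold with 21 reads, 289 bases before the start. Cdt1 had further TDG peaks close by, at 1255 bases (5.99-fold) and 3757 bases (5.47-fold) from its ends, both outside the gene, so TDG peaks lay on either side of it.

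Of the genes for the 6 subunits of the MCM helicase, which unwinds DNA at the fork, 3 had a TDG peak. They were Mcm2 (3.71-fold), Mcm4 (5.73-fold) and Mcm7 (5.21-fold). At Mcm2 (chr6:88898397-88898956) the summit held 31 reads, more than at Mcm4 (21 reads) or Mcm7 (19 reads), against a local background of 7 scaled reads. The genome-wide background was 2.558 scaled reads, so Mcm2 had the lowest fold enrichment of the list with the second most reads. A second and stronger TDG peak, of 7.36-fold, lay 3516 bases from Mcm2 and outside the gene. Mcm4 (chr16:15637027-15637970) had the widest peak of the list at 944 bases, which spans the neighbouring ends of Mcm4 and Prkdc, the gene for the DNA-dependent protein kinase, and has its summit in Prkdc. The Mcm7 peak (chr5:138171783-138172052) was the narrowest at 270 bases. Mcm3, Mcm5 and Mcm6 had no TDG summit nearer than 70245 bases.

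Among genes for the replication clamp and nucleotide supply, only Rrm2, which encodes the small subunit of ribonucleotide reductase, had a TDG peak. It was a weak one (chr12:24708223-24708560), of 4.18-fold with 17 reads and a −log10 q of 3.62, the lowest of the list. Pcna, the sliding clamp gene, had its nearest TDG summit (7.81-fold) 9935 bases away in the body of Cds2. For Tyms, which encodes thymidylate synthase, the nearest was 469270 bases away.

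Of the cyclin genes and Cdk1, only Ccna2 had a TDG peak. Cyclin A2 acts in S phase and G2. Its peak (chr3:36571966-36572273) reached 5.33-fold with 22 reads, and the summit lay inside Ccna2, 879 bases from its upper end and 983 bases from an end of Bbs7. The nearest TDG summit to Ccne1 was 12922 bases away (7.29-fold) with no protein-coding gene end nearer to it than that of Ccne1. For Ccne2 it was 34108 bases away at the end of Trp53inp1. Ccnb1, Ccnb2 and Cdk1, whose products form the kinase that starts mitosis, had no TDG summit nearer than 34295 bases. The phosphatase genes Cdc25a and Cdc25c had none nearer than 37786 bases.

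Of the 3 mitotic kinase genes, Plk1 and Aurka had a TDG peak. The Plk1 peak (chr7:122159315-122159645) reached 4.70-fold with 17 reads. At Aurka (chr2:172370617-172370915) the peak reached 5.73-fold with 21 reads, 148 bases from the end of Aurka and 93 bases from that of Cstf1. Aurkb, the kinase of the chromosomal passenger complex, had none at its ends but lay between TDG peaks 5402 bases (8.0-fold) and 8165 bases (6.68-fold) from its ends. Among the spindle checkpoint and anaphase genes, Mad2l1 had a peak and Cdc20, Bub1b and Bub1 did not, with their nearest summits at 5010, 52144 and 294018 bases. MAD2 holds back anaphase until chromosomes are attached. The Mad2l1 peak (chr6:66535058-66535415) had the most reads of the list, 41, and the highest −log10 q, 15.4. It reached 6.48-fold over a local background of 5.00 scaled reads.

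In the remaining mitotic genes the peaks were at Birc5 and Prc1. Birc5 encodes survivin, a passenger complex subunit, and its peak (chr11:117848821-117849361) reached 3.90-fold with 20 reads over a local background of 4.00 scaled reads. PRC1 bundles microtubules at the spindle midzone, and the Prc1 peak (chr7:80294183-80294661) reached 5.47-fold with 20 reads. Cenpa, Top2a, Mki67, the kinesin genes Kif11, Kif20a and Kif23, and the cytokinesis gene Ect2 had none. Their nearest TDG summits ranged from 29404 bases for Top2a to 5356317 bases for Ect2.

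As a group the 14 peaks were not strong ones. Their fold enrichments ran from 3.71 to 7.55 with a median of 5.40, against a median of 5.99 and quartiles of 5.15 and 6.94 for the other 2275 TDG peaks at gene ends. Of the 14, 10 lay below that median, and E2f1, Mad2l1, Cdc6 and Foxm1 lay above it. E2f1, the highest, was exceeded by 327 of the 2289 gene-end peaks. Summit reads had a median of 21.0 in the 14 peaks (interval 19.0 to 28.0) and 24.0 in the others. When a peak had to reach the median of all TDG peaks (5.74-fold) to be counted, 4 of the 40 genes remained (10.0%, interval 2.79 to 23.7%). The share of the other genes was 6.93%, which lies within that interval. Aurka and Mcm4, at 5.73-fold, fell just below that limit.

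**Figure D3:**
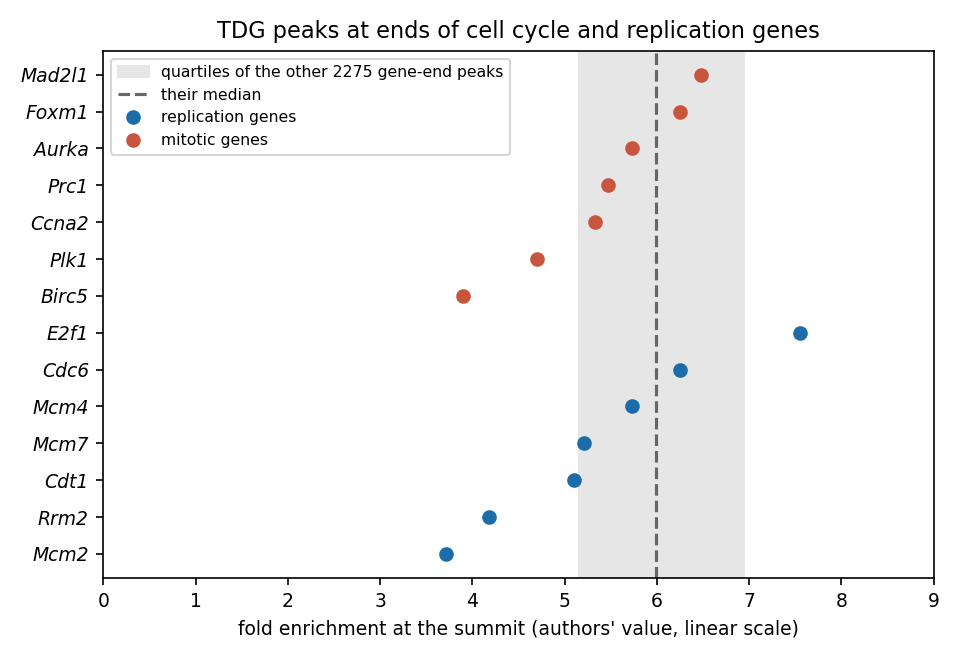
Fold enrichment of the 14 TDG peaks at gene ends (linear axis, authors' values from 1 library), 1 point per gene, in blue for replication and red for mitotic genes. The dashed line is the median (5.99) and the grey band the quartiles of the other 2275 gene-end peaks, and 10 of the 14 points lie left of the line.

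Replication and mitotic genes were then compared. A TDG peak was found at 7 of 17 replication genes (41.2%, interval 18.4 to 67.1%) and at 7 of 23 mitotic genes (30.4%, interval 13.2 to 52.9%). The difference was 10.7 percentage points with a 95% interval (Newcombe) from -17.5 to 38.0, so these lists are too short to separate the groups. Weighted by chromosome, the background was 13.3% for the replication genes and 12.2% for the mitotic genes. The median fold enrichment was 5.21 for the 7 replication peaks and 5.47 for the 7 mitotic peaks, with overlapping ranges of 3.71 to 7.55 and 3.90 to 6.48.

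Further genes of the same pathways, which also lie on other chromosomes, are read against the 12.3% of all protein-coding genes. Of 49 other replication genes, 15 (30.6%, interval 18.3 to 45.4%) had a TDG peak at an end, among them Pole4 (8.61-fold), which encodes a subunit of DNA polymerase epsilon, and Mcm9 (8.59-fold). Of 56 other mitotic genes, 13 (23.2%, interval 13.0 to 36.4%) had one, led by Wee1 (9.11-fold), the kinase gene that restrains CDK1, the checkpoint gene Bub3 (7.55-fold) and the condensin gene Ncapg (7.29-fold). Of 50 genes for the RB and E2F families, cyclin D kinases, their inhibitors and the anaphase-promoting complex, 11 (22.0%, interval 11.5 to 36.0%) had one, and this interval includes 12.3%. These were led by Lin52 (9.11-fold), a MuvB subunit gene, Fzr1 (8.10-fold), an activator gene of the anaphase-promoting complex, and the inhibitor gene Cdkn2d (7.81-fold). These genes are named because their fold enrichments were among the highest of their lists.

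**Figure D4:**
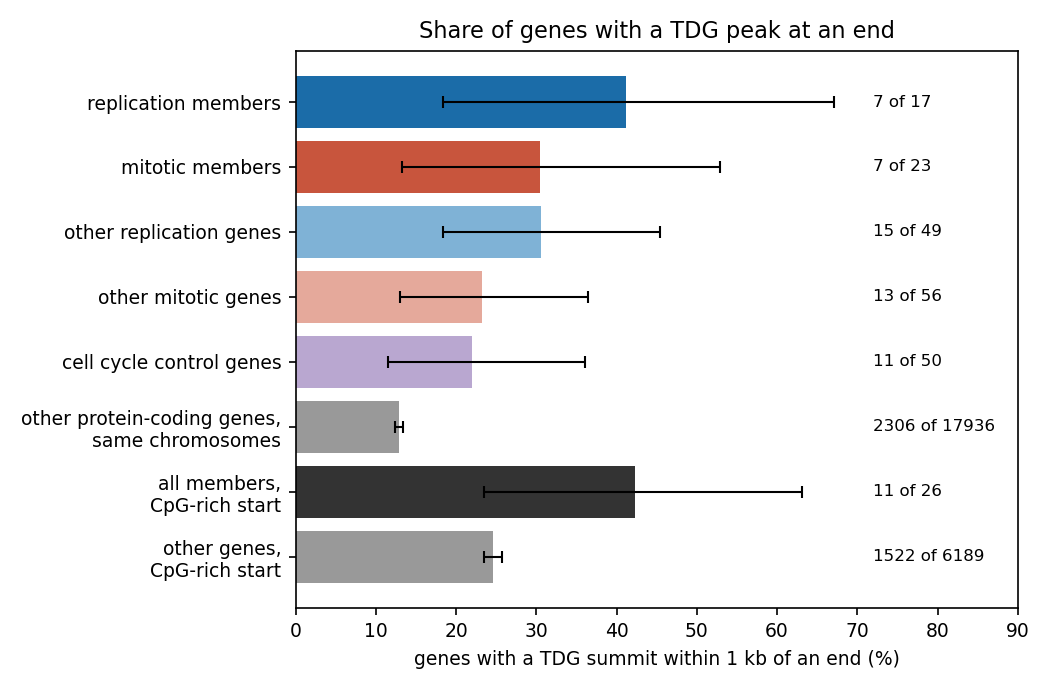
Percentage of genes with a TDG summit within 1 kb of an end, with exact binomial 95% intervals as error bars (counting error only) and counts at the right. Replication and mitotic members lie at 41.2% and 30.4% and other genes on their chromosomes at 12.9%, and with CpG-rich starts the shares are 42.3% for all members and 24.6% for other genes.

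Promoter composition moved with these shares. A start window was called CpG-rich when its GC content was at least 55% and its observed over expected CpG ratio at least 0.6. All 11 genes of the list with a TDG peak and a start window were CpG-rich, and none of the 7 genes with another kind of window (Bub1b, Ccnb2, Cenpa, Top2a, E2f2, Mcm3 and Tyms) had a TDG peak. Among CpG-rich starts, 11 of 26 genes of the list (42.3%, interval 23.4 to 63.1%) had a TDG peak, against 24.6% of 6189 other genes on the same chromosomes. The ratio to the background was thus 1.72 with CpG-rich starts, and the value of 24.6% lies within the interval of the list. The ratio of 2.72 covers all 40 genes, 7 of which have no start window. For the 33 genes with a start window, counting peaks at the start only, the ratio was 2.37. Other genes whose start was not CpG-rich had a TDG peak in 5.69% of 8258 cases. The GC content of the windows ran from 57.3 to 77.3% in the 11 genes with a peak and from 47.7 to 76.0% in the 22 without. With CpG-rich starts, the further lists had shares of 33.3% (9 of 27 replication genes), 31.2% (10 of 32 mitotic genes) and 31.0% (9 of 29 control genes).

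Close neighbours also went with a TDG peak. Of the 11 genes of the list with an end within 1 kb of an end of another protein-coding gene, 8 had a TDG peak (interval 39.0 to 94.0%). Of the 29 with no such neighbour 6 had one (20.7%, interval 7.99 to 39.7%). Among other genes on these chromosomes the shares were 22.4% of 4531 and 9.63% of 13405, and the latter lies within the second interval. The 8 include E2f1 and Plk1, whose close neighbour lay at the gene end without the peak. Of the 14 peaks, 6 counted for a neighbour as well, namely for Rhno1 at Foxm1, Cstf1 at Aurka, Ap4m1 at Mcm7, Prkdc at Mcm4, Rccd1 at Prc1 and Bbs7 at Ccna2. This share of 42.9% compares with 19.4% of the other gene-end peaks. In 4 of the 6, all except Prc1 and Ccna2, the summit was nearer to the neighbour, so that giving each peak only to the nearest gene left 10 of the 40 genes against 10.8% of the others. Which gene of such a pair the peak belongs to cannot be told apart from the peak list.

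Chromosome 6 stood out. Its 3 genes of the list, Mad2l1, Foxm1 and Mcm2, all had a TDG peak, and so did 25.5% of its other protein-coding genes, the highest share of the 16 chromosomes. Next came chromosome 12 (24.2%), which holds Rrm2, and chromosome 16 (23.0%), which holds Mcm4. The median local background of TDG peaks on chromosome 6 was 3.28 scaled reads, also the highest of the 16. Its part in the result was not tested. When chromosome 6 was left out, an option added after the data had been seen, 11 of 37 genes (29.7%) had a TDG peak against 12% of other genes, a ratio of 2.47. At the other extreme, chromosome 18, with Kif20a and Cdc25c, had a TDG peak at 3.74% of its other genes.

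The start windows of replication and mitotic genes differed most in the CHR letters, while NF-Y and GC boxes were frequent in both. These shares rest on 15 and 18 windows and have no intervals. An E2F match was found in 8 of 15 replication genes (53.3%) and 4 of 18 mitotic genes (22.2%), against 8.84% of 17491 protein-coding start windows and 15.7% of the 7218 CpG-rich ones. The CHR letters were found in 13 of 18 mitotic genes (72.2%) and in 1 of 15 replication genes (Mcm2), against 16.5% of all windows and 7.43% of CpG-rich ones. NF-Y boxes were present in 15 of 18 mitotic and 10 of 15 replication genes (83.3% and 66.7%), against 39.2% of all windows and 36.3% of CpG-rich ones. GC boxes (GGGCGG) were present in 16 of 18 mitotic and 12 of 15 replication genes (88.9% and 80.0%), against 46.3% of all windows but 79.8% of CpG-rich ones, so that their share was near that of CpG-rich starts. The CRE core was present in E2f1, Mcm2, Mcm5 and Orc1 among replication genes and in no mitotic gene, against 8.71% of all windows and 13.2% of CpG-rich ones. Some letters of the E2F and NF-Y matches overlap, as in Mcm7.

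**Figure D5:**
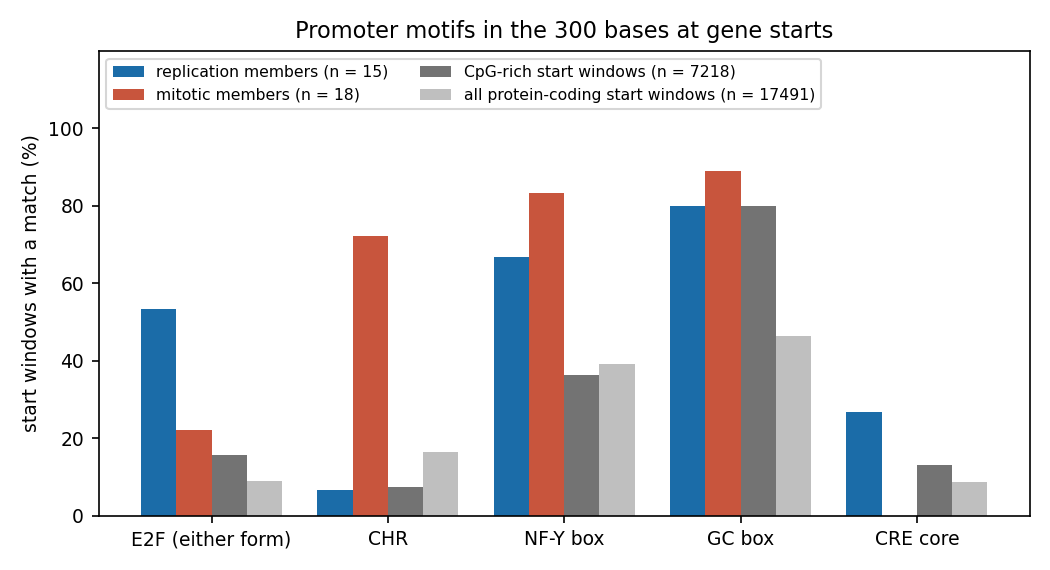
Percentage of 300-base start windows with a match on either strand, for 15 replication and 18 mitotic members, CpG-rich windows and all protein-coding windows. E2F matches are most frequent in replication genes (53.3%) and CHR matches in mitotic genes (72.2%).

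TDG peaks were found both with and without each of these elements, in counts too small to compare. Among replication genes, 3 of the 8 with an E2F match (Cdc6, Cdt1 and Mcm7) and 3 of the 7 without one (E2f1, Mcm2 and Rrm2) had a TDG peak. Among mitotic genes, 3 of the 13 with a CHR match (Aurka, Plk1 and Prc1) and 2 of the 5 without one (Birc5 and Mad2l1) had a TDG peak. None of the 4 mitotic genes with an E2F match (Ccnb1, Cdk1, Ect2 and Mki67) had a TDG peak, against 5 of the 14 without one. By form of the E2F match in replication genes, a TDG peak was found at 3 of the 4 with TTCCCGC and at 2 of the 7 with TTGGCGC. With an NF-Y box, 3 of 10 replication genes and 3 of 15 mitotic genes had a TDG peak, and without one 3 of 5 and 2 of 3 had one. In the CpG-rich windows of other genes on the same chromosomes, a TDG peak went with 26.0% of windows with an E2F match and 24.3% without. By form, the shares were 25.3% with TTCCCGC and 24.5% without it, and 28.0% with TTGGCGC and 24.4% without it. With a CHR match the share was 24.2%, and without one 24.6%. The shares were 30.3% with an NF-Y box and 21.4% without, and 30.2% with a CRE core and 23.7% without. The counts of the list are not directly comparable, because they include genes whose windows were not CpG-rich. None of those genes had a TDG peak, and all of them except Tyms have an NF-Y box. A match is a run of letters and not a measured site. The windows were also not always under the peak, which covered 0 window bases at E2f1 and 81 at Rrm2 but all 300 at Birc5 and Prc1. For E2f1 the sequence under the peak was therefore not searched.

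With 126 p53 peaks in all, few were to be found in any list of this size. A p53 peak was assigned to any gene spanning its summit, and also to whichever gene had an end closest to it. Only Tyms, 1 of the 40 genes (2.5%, interval 0.0633 to 13.2%), received one, against 0.558% of other protein-coding genes on the same chromosomes, a share that lies within the interval. The Tyms peak (chr5:30046168-30046473) lay inside the gene, 27303 bases after the start and 7776 bases from the end where transcription stops, and exon positions were not used here. It reached 12.1-fold (−log10 q 26.1) with 45 summit reads and a local background of 2.03 scaled reads. Of the 126 p53 peaks, 69 had a higher fold enrichment. The median over all p53 peaks was 13.5-fold and 77.5 reads, so the Tyms peak was an ordinary one for this list. The nearest TDG summit was 477046 bases from it, and thus no gene of the list had both kinds of peak.

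None of the 23 mitotic genes had a p53 peak, which allows a share of up to 14.8% by the exact interval and cannot be told from the background of 0.558%. After Tyms, the nearest p53 summits were 34166 bases from Ccne2, at Trp53inp1, and 82988 bases from Foxm1, and the median over 38 genes on chromosomes with p53 peaks was 4484472 bases. Of the further pathway genes, Cdkn1a, which encodes the CDK inhibitor p21, was the only one with p53 peaks, and it had 3. They reached 32.5-fold with 123 reads at 36 bases from the gene end (chr17:29090720-29091201), 26.2-fold with 99 reads at 11930 bases outside the gene (chr17:29078888-29079200), and 12.6-fold with 47 reads inside the gene (chr17:29094384-29094688). The 49 other replication genes and the 56 other mitotic genes had none, which at a background of 0.558% says nothing particular about them.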

How the data were processed

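Fixation was with 1% formaldehyde (10 min) and sonicated fragments were near 300 bp, per the labels' protocols. Of the 9 samples of the series, the peak lists of 2 were used, 1 library each, and 7 were not analysed here. Per the submitters' processing notes, the build was mm10 and the tools included MACS2, Bowtie2, Trim Galore, Picard, ChIPseeker and deepTools. Tool versions, roles, the control library and the calling threshold were not given in the sources used here. Peaks were deposited by the authors in the narrowPeak layout, with a fold enrichment (a ratio over the local background), −log10 p and −log10 q of the summit, and a score. In all 3410 TDG and 126 p53 peaks the deposited score was the −log10 q times 10 without its decimals. The lowest −log10 q was 3.02 for TDG and 3.74 for p53.

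The lists carry no library totals. Summit reads and local background were recovered from fold enrichment (pseudocount 1) and Poisson p jointly, as MACS2 defines them. Where several solutions existed, the one at the genome-wide background or the one nearest to whole reads was taken, at read scales of 0.924 and 0.792. Before that choice, 94.08% of TDG and 90.48% of p53 summits were whole reads within 0.05. Summit reads were divided by the read scale, 0.924 for TDG and 0.792 for p53, whereas backgrounds were left as scaled reads. On 300 simulated peaks the reads and background were recovered for 100%. Those peaks were made with the same formulas at another read scale. They therefore check the arithmetic only, not whether the deposited values follow the formulas. At 17 to 41 reads per summit in these genes, counting error alone is large.

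Genes and starts came from RefSeq tables of GRCm38.p6, all 40 names matched, and 17491 protein-coding genes had a start window. Members, roles, motifs and the 3 further gene lists were chosen with earlier results of these data known. Named beyond the members were the 3 genes of each further list with the highest TDG fold enrichment, any with a p53 peak, and genes sharing a member's peak, except 1 gene that is not reported here. Shares are described beside their background without tests, as each antibody has 1 library. Alternatives were other windows, thresholds, backgrounds and assignments. Python 3.11.15, numpy 2.4.6, pandas 2.3.3 and scipy 1.17.1 were used.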

Additional observations from a re-analysis of the deposited data

How the results depend on the processing

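Of 62 values recomputed under other settings, 56 were labelled close to those reported and none reversed. Close meant within 1.5 times for counts and within the 95% interval for values that have one. Some of the 56 could not have moved, so their number does not measure how firm the results are. No peak of the list had a local background of 10 scaled reads or more, so leaving out such peaks changed none of these values. The difference between the groups was judged against a wide interval (-17.5 to 38.0), and the p53 counts rest on 1 gene. Keeping only peaks whose fold enrichment reached their list's median had the strongest effect: 4 genes of the list kept a TDG peak, 2 replication and 2 mitotic, the ratio to other genes on the same chromosomes fell to 1.44, and 0 genes kept a p53 peak, because Tyms (12.1-fold) lies under the p53 median of 13.5. Fewer peaks are counted there by construction. With −log10 q as the strength, the 14 peaks had a median of 6.86 (interval 4.37 to 9.03), against 8.65 for other gene-end peaks. This value is counted as moved although it is on another scale than fold enrichment. The ratio of 2.72 lay between 2.31 and 2.86 under the other settings, except for 1.72 among CpG-rich starts. The ratio has no interval of its own, and the 1.72 is counted among the 56 close values although it is clearly lower. A −log10 q of at least 5 left 11 genes, without Plk1, Birc5 and Rrm2. Counting Mybl2 and Ccna2 as replication genes gave a difference between the groups of 13.5 percentage points (interval -15.0 to 39.7). No paired analysis was possible because each group holds 1 library. With 1 library per antibody and few reads per summit, the absence of a called peak at a gene does not show that TDG or p53 was absent there.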
